A study of Mus musculus with 18 samples.

Results

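The platelet-derived growth factor (PDGF) ligands and receptors were followed in kidney messenger RNA by 5 genes: the ligands Pdgfa, Pdgfb and Pdgfc and the receptors Pdgfra and Pdgfrb. Their members were all probe sets that the array's annotation pairs with 1 of these symbols and no other, 10 probe sets of the 22626 tested and 5 genes of the 12393 that had a probe set of their own. Each gene had 2 probe sets, and the brighter of them, by its mean over all arrays, stood for the gene. By Entrez identifier the genes are Pdgfa 18590, Pdgfb 18591, Pdgfc 54635, Pdgfra 18595 and Pdgfrb 18596.

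The study compared kidneys of wild-type (WT), TIMP2-/- and TIMP3-/- mice, all on C57BL/6, taken 3 days after surgery. The surgery was either obstruction of 1 ureter (unilateral ureteral obstruction, UUO) or a sham. TIMP2 and TIMP3 are tissue inhibitors of metalloproteinases, the proteins that hold matrix-degrading and shedding enzymes in check. In the UUO groups the right ureter was tied with a double ligature, which injures the kidney behind it, in the sham groups the operation was the same without the ligature, and the whole kidney of the operated side was used. Each of the 6 groups (WT sham, TIMP2-/- sham, TIMP3-/- sham, WT UUO, TIMP2-/- UUO and TIMP3-/- UUO) held 3 Affymetrix Mouse430A_2 arrays, described in the labels as biological replicates, and 18 arrays were used in all. The labels give no age or sex of the mice and do not describe how the knockout alleles were made. In whole kidney RNA, more or fewer cells of a type and more or less RNA per cell cannot be told apart.

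PDGFs are growth factors for cells of mesenchymal origin. They act as dimers: PDGF-A and PDGF-C bind chiefly the receptor alpha, encoded by Pdgfra, and PDGF-B binds both receptors, of which the beta form is encoded by Pdgfrb. Both receptors are tyrosine kinases, and after dimerization they recruit PI3 kinase, phospholipase C gamma, SHP2 and the Ras and STAT pathways. In the kidney, PDGF-B from endothelium is required for mesangial cells and pericytes, which carry the beta receptor, and interstitial fibroblasts carry both receptors. PDGF-A and PDGF-B are cut into their active form inside the cell by furin-like convertases, whereas PDGF-C is secreted with a CUB domain that tissue plasminogen activator can remove outside the cell.

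The promoters of a ligand and a receptor that rose after UUO and of the ligand that did not pass the test are shown as the sequence context of members that did and did not pass. The probe sets do not register which start a transcript used. The RefSeq promoter table of GRCm38.p6 matched 3 of the 5 genes (Pdgfa, Pdgfc and Pdgfra), and the sequences below are its 250 bases before the start, written 5′ to 3′ along the gene. Motifs were searched on both strands. These were the TATA box (TATAAA), the CCAAT box, the Sp1 box (GGGCGG) and the EGR1 sites GCGGGGGCG and GCGTGGGCG, which do not overlap one another in the windows shown, and capitals mark a match on either strand.
Pdgfa, chr5:138994945-138995194, minus strand: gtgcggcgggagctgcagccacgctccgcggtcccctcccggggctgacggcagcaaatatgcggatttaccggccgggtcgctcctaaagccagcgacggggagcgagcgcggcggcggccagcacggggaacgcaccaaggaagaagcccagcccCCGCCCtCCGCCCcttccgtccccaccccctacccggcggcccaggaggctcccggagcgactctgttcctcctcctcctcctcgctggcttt
Pdgfra, chr5:75152001-75152250, plus strand: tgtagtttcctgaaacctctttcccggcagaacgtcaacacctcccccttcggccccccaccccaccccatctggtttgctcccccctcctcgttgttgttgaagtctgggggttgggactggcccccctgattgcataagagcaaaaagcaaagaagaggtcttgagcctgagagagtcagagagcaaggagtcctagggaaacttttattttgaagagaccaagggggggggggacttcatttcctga
Pdgfc, chr3:81036166-81036415, plus strand: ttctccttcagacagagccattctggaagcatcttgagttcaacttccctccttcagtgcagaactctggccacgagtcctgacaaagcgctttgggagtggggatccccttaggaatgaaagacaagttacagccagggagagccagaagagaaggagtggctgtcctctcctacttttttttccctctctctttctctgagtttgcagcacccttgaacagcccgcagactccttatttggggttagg

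Pdgfa has 2 windows in the table, and the upstream one is printed. It held GGGCGG at 2 places, both on the strand opposite to the gene, at -93 to -88 and at -86 to -81 from the start. The window not printed held GGGCGG on the same strand as the gene, at -60 to -55 from its own start. Of 32851 promoters of the same length, 32.7% held GGGCGG. The printed Pdgfra and Pdgfc windows held none of the motifs, which in the table were found in 12.4% of promoters for the TATA box, 33.8% for the CCAAT box, 2.57% for GCGGGGGCG and 0.536% for GCGTGGGCG. G and C made up 72.4% of the Pdgfa window, 54.4% of the Pdgfra window and 50.8% of the Pdgfc window, against a median of 52.4% over all promoters of the table.

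The array medians lay between 201 and 214 intensity units on the sham arrays and between 215 and 247 on the UUO arrays, and the correlation between replicates across probe sets ran from 0.954 to 0.997. The targeted genes followed the labels: Timp3 had a mean intensity of 49.2 in TIMP3-/- sham and 36.9 in TIMP3-/- UUO against 7500 and 4863 in the WT groups, and Timp2 had 824 in TIMP2-/- UUO against 4138 in WT UUO. After sham, Timp2 was at 640 in TIMP2-/- and 1179 in WT, which missed the threshold (log2 difference -0.86 ± 0.16 SE, limma adjusted p = 0.143), with every TIMP2-/- array below every WT array. An array is named by its group and replicate number, and 3 arrays stood apart. On WT UUO 2 the transcript of albumin, Alb, which hepatocytes make, stood at 28110, where WT UUO 1 had 72.7 and WT UUO 3 had 254. WT sham 3 and TIMP3-/- UUO 2 lay lowest on the second principal component, which held 16.6% of the variance. Results that rest on these arrays are given with and without them where they change.

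Ureteral obstruction was accompanied by higher Pdgfa, Pdgfb, Pdgfra and Pdgfrb transcript levels in all 3 genotypes, and Pdgfc did not pass the test in any. By brightest probe set, 4 of the 5 genes were called higher in each genotype, where 16.6% of all genes were in WT, 15.7% in TIMP2-/- and 25.6% in TIMP3-/-. A gene or probe set was called where limma's p, adjusted with the Benjamini-Hochberg method over all 22626 probe sets, was under 0.05. By probe set, 8 of 10 were called higher in WT, where 14.7% of all probe sets were, 7 of 10 in TIMP2-/-, where 14.1% of all were, and 8 of 10 in TIMP3-/-, where 25% of all were. Of all probe sets, 16.1%, 20.9% and 37.5% were called lower. The median log2 difference over the 5 genes was 1.29 in WT, 0.76 in TIMP2-/- and 1.02 in TIMP3-/-, and over all probe sets it was -0.12, -0.12 and -0.18. UUO and sham arrays did not overlap in 9 of the 10 probe sets in WT, 7 in TIMP2-/- and 8 in TIMP3-/-, against 47.8%, 53.2% and 61.9% of all probe sets.

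The size of this background depends on the scaling. With every array shifted to the same median, the median over all probe sets became -0.25 in WT, -0.27 in TIMP2-/- and -0.41 in TIMP3-/-. The calls then numbered 2661 higher and 5608 lower in WT against 3328 and 3643 as deposited, 2489 and 7269 in TIMP2-/- against 3184 and 4738, and 4262 and 11432 in TIMP3-/- against 5663 and 8482. The called member genes kept their direction under that scaling, and Pdgfa in TIMP2-/- lost its call.

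**Figure D1:**
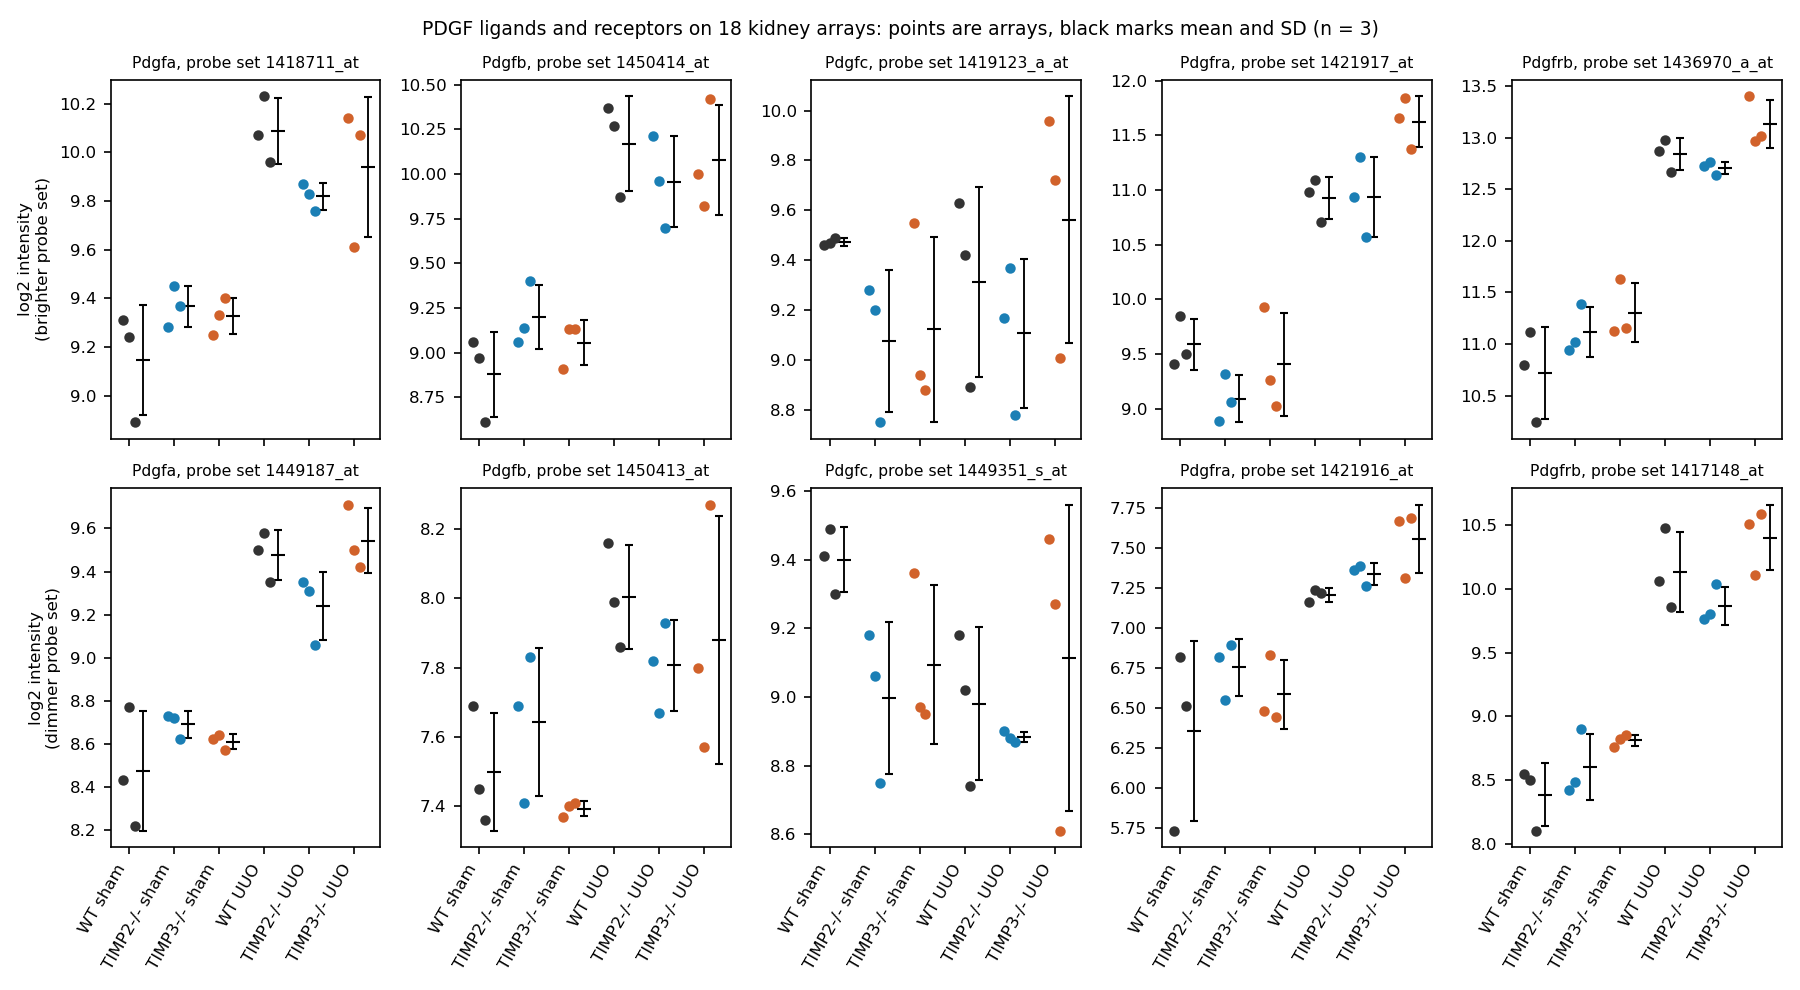
Log2 intensity (vertical axes, a separate range for each panel) of the 10 PDGF probe sets on the 18 arrays, brighter probe sets above and dimmer ones below. Points are arrays and black marks are the group mean and SD (n = 3). In Pdgfa, Pdgfra and Pdgfrb the UUO arrays lie above the sham arrays with both probe sets, and in Pdgfc they overlap except in WT with probe set 1449351_s_at, where UUO lies below sham.

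Among the ligands, Pdgfa encodes the A chain. Probe set 1418711_at read 634, 603 and 476 on the WT sham arrays and 1073, 1197 and 996 on the WT UUO arrays. In TIMP2-/- it read 623, 697 and 664 after sham and 936, 913 and 868 after UUO. In TIMP3-/- it read 611, 642 and 678 after sham and 1132, 784 and 1078 after UUO. The 9 sham arrays ended at 697 and the 9 UUO arrays began at 784, so that the operations did not overlap across genotypes, with TIMP3-/- UUO 2 the lowest UUO array. The log2 difference was 0.94 ± 0.14 (SE, n = 3 against 3) in WT, a 1.92-fold rise (limma adjusted p = 0.000197). It was 0.62 ± 0.14 in TIMP3-/- (limma adjusted p = 0.00219) and 0.46 ± 0.14 in TIMP2-/- (limma adjusted p = 0.0245).

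The call of Pdgfa in TIMP2-/- was close to the threshold with this probe set. It was lost with arrays shifted to 1 median (0.31, limma adjusted p = 0.112), with quantile normalization (0.39, adjusted p = 0.0521) and without any of 4 arrays, namely TIMP2-/- sham 1 (0.41, adjusted p = 0.0722), sham 3 (0.46, adjusted p = 0.0624), UUO 1 (0.43, adjusted p = 0.0831) and UUO 2 (0.45, adjusted p = 0.0747). The shift to 1 median also reduced the TIMP3-/- difference to 0.38, which kept its call (adjusted p = 0.0361). The second Pdgfa probe set, 1449187_at, lay between 298 and 438 after sham and between 534 and 836 after UUO. Its differences of 1.00 in WT, 0.55 in TIMP2-/- and 0.93 in TIMP3-/- passed limma's test (adjusted p = 7.92e-05, 0.00774 and 6.63e-05).

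Pdgfb encodes the B chain, the ligand that endothelial cells, platelets and macrophages can release. Probe set 1450414_at read 534, 503 and 391 on the WT sham arrays and 1320, 1237 and 938 on the WT UUO arrays. In TIMP2-/- the readings were 534, 563 and 674 after sham and 1188, 998 and 833 after UUO. In TIMP3-/- they were 483, 559 and 562 after sham and 1022, 901 and 1369 after UUO. All 9 UUO arrays lay above all 9 sham arrays, with 674 the highest sham value and 833 the lowest UUO value. The log2 difference was 1.29 ± 0.19 in WT (2.44-fold, limma adjusted p = 0.00013), 0.76 ± 0.19 in TIMP2-/- (1.70-fold, adjusted p = 0.00729) and 1.02 ± 0.19 in TIMP3-/- (2.03-fold, adjusted p = 0.000402).

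The second Pdgfb probe set, 1450413_at, was dimmer, from 164 to 309, and gave smaller differences. They were 0.51 ± 0.17 in WT (limma adjusted p = 0.0309), 0.49 ± 0.17 in TIMP3-/- (0.0193) and 0.16 ± 0.17 in TIMP2-/-, which did not pass (0.455) and whose arrays overlapped. The call in WT was lost without any of 4 arrays, WT sham 2 (adjusted p = 0.0791), sham 3 (0.104), UUO 1 (0.114) or UUO 2 (0.075), and that in TIMP3-/- without TIMP3-/- UUO 3 (0.29, adjusted p = 0.101). Both were lost with arrays shifted to 1 median (0.38 and 0.26) and with quantile normalization (0.38 and 0.28). With the 2 probe sets averaged, Pdgfb in TIMP2-/- differed by 0.46 in place of 0.76 and still passed (limma adjusted p = 0.0378).

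Pdgfc encodes the C chain. Probe set 1419123_a_at read 707, 711 and 719 on the WT sham arrays and 793, 685 and 475 on the WT UUO arrays. In TIMP2-/- it read 621, 590 and 429 after sham and 578, 660 and 441 after UUO. In TIMP3-/- it read 750, 493 and 471 after sham and 996, 841 and 517 after UUO. Sham and UUO arrays overlapped in every genotype, and the 3 WT sham arrays were close together where every other group spread widely. The log2 difference was -0.16 (95% interval -0.71 to 0.39) in WT, 0.03 (-0.52 to 0.58) in TIMP2-/- and 0.44 (-0.11 to 0.99) in TIMP3-/-, with limma adjusted p of 0.66, 0.931 and 0.147. Each interval spanned no change as well as falls and rises, so with 3 arrays a group none of these could be excluded.

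Pdgfc in TIMP3-/- depended on single arrays, as it passed without TIMP3-/- sham 1 (0.65, limma adjusted p = 0.0481) and without TIMP3-/- UUO 3 (0.71, adjusted p = 0.0218). The other Pdgfc probe set, 1449351_s_at, did not show that rise: its difference was 0.02 (-0.39 to 0.43) in TIMP3-/-. In WT it differed by -0.42 ± 0.19 with no overlap between sham and UUO (limma adjusted p = 0.11), and with arrays shifted to 1 median by -0.55 (adjusted p = 0.0301). In TIMP2-/- it differed by -0.11 ± 0.19 (adjusted p = 0.671). The suffixes of both names mark probe sets whose probes can match several transcripts.

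The alpha receptor, Pdgfra, marks interstitial fibroblasts in many organs. Probe set 1421917_at read 681, 923 and 723 on the WT sham arrays and 2018, 2185 and 1672 on the WT UUO arrays. In TIMP2-/- it read 476, 640 and 533 after sham and 1964, 2526 and 1517 after UUO. In TIMP3-/- it read 973, 613 and 520 after sham and 3245, 3670 and 2666 after UUO. The 9 UUO arrays lay above the 9 sham arrays (highest sham 973, lowest UUO 1517), and the 3 TIMP3-/- UUO arrays were the highest of all 18. The rise was 1.34 ± 0.23 on the log2 scale in WT (2.53-fold, limma adjusted p = 0.000555), 1.85 ± 0.23 in TIMP2-/- (3.59-fold, adjusted p = 5.29e-05) and 2.23 ± 0.23 in TIMP3-/- (4.68-fold, adjusted p = 4.08e-06).

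The second Pdgfra probe set, 1421916_at, was dim, from 53.1 to 206, and passed the 25th percentile of the array on 17 of 18 arrays. Its rises were 0.86 ± 0.21 in WT (limma adjusted p = 0.00682), 0.58 ± 0.21 in TIMP2-/- (0.045) and 0.98 ± 0.21 in TIMP3-/- (0.00134). Without WT sham 1, the lowest of its arrays, the WT rise was 0.55 and kept its call. The TIMP2-/- call was lost without any 1 of the 6 TIMP2-/- arrays, with values from 0.48 to 0.65 and adjusted p from 0.0535 to 0.143. The 2 probe sets of Pdgfra differed by 0.66 (root mean square of their centred log2 values over 18 arrays), more than those of the other members (0.16 to 0.36). With both averaged, the TIMP2-/- rise of Pdgfra was 1.21 in place of 1.85.

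Pdgfrb, the beta receptor, is the receptor of pericytes and mesangial cells. Probe set 1436970_a_at read 1781, 2230 and 1209 on the WT sham arrays and 7508, 8068 and 6515 on the WT UUO arrays. In TIMP2-/- it read 1964, 2073 and 2678 after sham and 6746, 6937 and 6402 after UUO. In TIMP3-/- it read 2243, 3170 and 2268 after sham and 10820, 8013 and 8327 after UUO. The lowest UUO array, at 6402, stood above the highest sham array, at 3170, and WT sham 3 was the lowest array. The rise was 2.12 ± 0.21 on the log2 scale in WT (4.35-fold, limma adjusted p = 3.47e-06), 1.59 ± 0.21 in TIMP2-/- (3.02-fold, adjusted p = 7.23e-05) and 1.83 ± 0.21 in TIMP3-/- (3.55-fold, adjusted p = 7.58e-06). The second probe set, 1417148_at, rose by 1.75, 1.26 and 1.59 in the same order, each past the test.

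Without WT UUO 2, WT sham 3 and TIMP3-/- UUO 2, the same 4 genes were called higher in WT and in TIMP3-/-. Their WT differences were then 0.74 for Pdgfa, 1.10 for Pdgfb, 1.21 for Pdgfra and 1.81 for Pdgfrb, and the TIMP3-/- differences were 0.78, 1.15, 2.12 and 1.91. That fit lost the WT call of the dimmer Pdgfb probe set (adjusted p = 0.125).

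**Figure D2:**
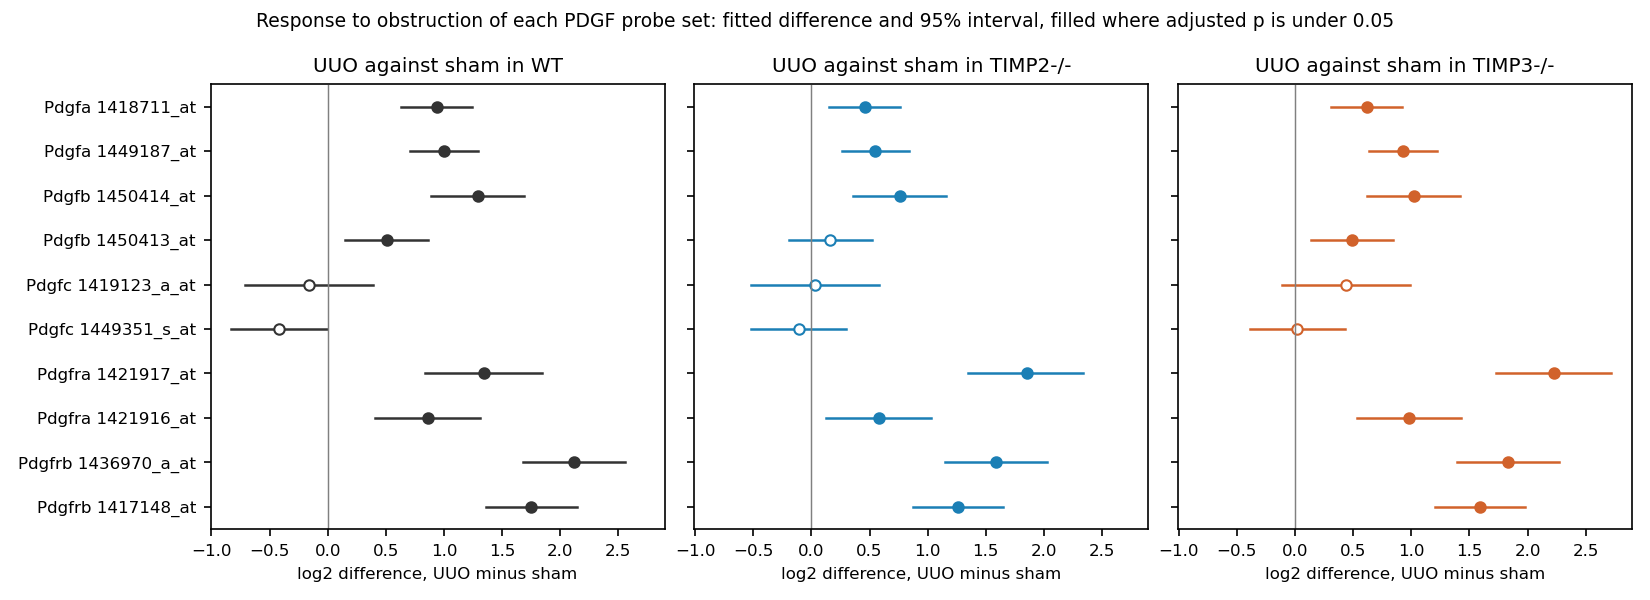
Log2 difference of UUO minus sham (horizontal axis) for each PDGF probe set in WT, TIMP2-/- and TIMP3-/-, with bars for the 95% interval and filled points where the limma adjusted p was under 0.05. The brighter receptor probe sets 1421917_at and 1436970_a_at reach 1.34 to 2.23. The dimmer ones reach 0.58 to 0.98 (Pdgfra 1421916_at) and 1.26 to 1.75 (Pdgfrb 1417148_at). The Pdgfa and Pdgfb probe sets reach 0.16 to 1.29, and the Pdgfc probe sets, none filled, run from -0.42 to 0.44.

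By brighter probe set, the order of the groups separated the operations first. For Pdgfa and Pdgfb it ran WT UUO, TIMP3-/- UUO and TIMP2-/- UUO, then TIMP2-/- sham, TIMP3-/- sham and WT sham, and each neighbour overlapped the next except across the step from UUO to sham. For Pdgfra it ran TIMP3-/- UUO (mean log2 intensity 11.63), TIMP2-/- UUO (10.94), WT UUO (10.93), WT sham (9.59), TIMP3-/- sham (9.40) and TIMP2-/- sham (9.09), with TIMP3-/- UUO apart from the next group. For Pdgfrb it began with TIMP3-/- UUO (13.13), WT UUO (12.84) and TIMP2-/- UUO (12.71), and neighbours among these UUO groups overlapped. TIMP2-/- UUO did not overlap TIMP3-/- sham, the group after it. Pdgfc had no step between the operations, and every neighbour overlapped the next. With the dimmer probe sets the order of Pdgfa began with TIMP3-/- UUO, and TIMP3-/- UUO overlapped the next group for Pdgfra. The dimmer Pdgfb probe set had no step between the operations (highest sham 228, lowest UUO 190).

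Between genotypes, limma called 0 of the 5 genes and 0 of the 10 probe sets after UUO. In TIMP3-/- against WT, Pdgfra was the largest difference of the 5 genes, at 0.70 ± 0.23 (95% interval 0.21 to 1.2, adjusted p = 0.138), and the TIMP3-/- arrays (2666 to 3670) did not overlap the WT arrays (1672 to 2185). The dimmer Pdgfra probe set differed by 0.35 ± 0.21 there (adjusted p = 0.347). In TIMP2-/- against TIMP3-/-, Pdgfra differed by -0.69 ± 0.23 (-1.19 to -0.2, adjusted p = 0.075), again without overlap, and Pdgfrb by -0.42 ± 0.21 (adjusted p = 0.18) with 1436970_a_at and -0.54 ± 0.18 (adjusted p = 0.0799) with 1417148_at. In TIMP2-/- against WT the 5 genes lay between -0.26 (Pdgfa) and 0.01 (Pdgfra). At an unadjusted p under 0.05 the counts were 1 of 5 genes (Pdgfra) in TIMP3-/- against WT, 1 of 5 (Pdgfra) in TIMP2-/- against TIMP3-/- and 0 of 5 in TIMP2-/- against WT, where 20.5%, 30.2% and 3.40% of all probe sets met that cut, so these counts were near the background.

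The 0 adjusted calls stand against 0.0486% of all probe sets called in TIMP2-/- against WT, 0.707% in TIMP3-/- against WT and 7.06% in TIMP2-/- against TIMP3-/-. The UUO groups did not overlap in 2, 2 and 4 of the 10 PDGF probe sets in these comparisons, against 8.62%, 15.1% and 29.6% of all probe sets. Leaving out TIMP3-/- UUO 3 raised the calls in TIMP2-/- against TIMP3-/- from 0 to 2 genes, both lower in TIMP2-/- (Pdgfra -0.82, limma adjusted p = 0.0349, and Pdgfc -0.73, adjusted p = 0.0464). Without that array the other Pdgfc probe set passed too (-0.48, adjusted p = 0.0487). Leaving out the 3 arrays that stood apart gave 0 genes and a call for Pdgfrb probe set 1417148_at (-0.68, adjusted p = 0.0289).

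After sham, 0 of the 5 genes was called in any pair of genotypes, against 0.0221% of all probe sets in TIMP2-/- against WT, 0.0442% in TIMP3-/- against WT and 0.0751% in TIMP2-/- against TIMP3-/-. At an unadjusted p under 0.05 the counts were 1, 1 and 0 of 5, where 25.8%, 10.6% and 3.91% of all probe sets met that cut. They were Pdgfra in TIMP2-/- against WT (-0.50 ± 0.23, limma adjusted p = 0.193), whose dimmer probe set had the opposite sign (0.40 ± 0.21, adjusted p = 0.229), and Pdgfrb in TIMP3-/- against WT (0.58 ± 0.21, adjusted p = 0.472). In both the sham arrays of the pair did not overlap, as in 41.5% and 14.6% of all probe sets. In TIMP2-/- against TIMP3-/- the sham arrays did not overlap in 1 of the 10 PDGF probe sets, against 12.6% of all.

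The response to UUO, meaning the UUO minus sham difference, was also compared between genotypes. limma called 0 of the 10 probe sets and 0% of all probe sets in each of the 3 pairs. At an unadjusted p under 0.05, 1 of the 5 genes in TIMP2-/- minus WT, 1 in TIMP3-/- minus WT and 0 in TIMP2-/- minus TIMP3-/- met the cut, as did 8.91%, 25.9% and 10% of all probe sets. For Pdgfra the response was larger in TIMP3-/- than in WT by 0.89 ± 0.33 (0.19 to 1.59, adjusted p = 0.167), and by 0.12 ± 0.30 (-0.52 to 0.76) with the dimmer probe set. For Pdgfa the TIMP2-/- response differed from that of WT by -0.48 ± 0.20 (-0.92 to -0.05, limma adjusted p = 0.551). With the dimmer Pdgfa probe set it differed by -0.45 ± 0.19 (-0.86 to -0.03, adjusted p = 0.551). For Pdgfrb the TIMP2-/- response differed from that of WT by -0.53 and the TIMP3-/- response by -0.29, neither called. These intervals are of single probe sets and are not adjusted for the number tested.

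**Figure D3:**
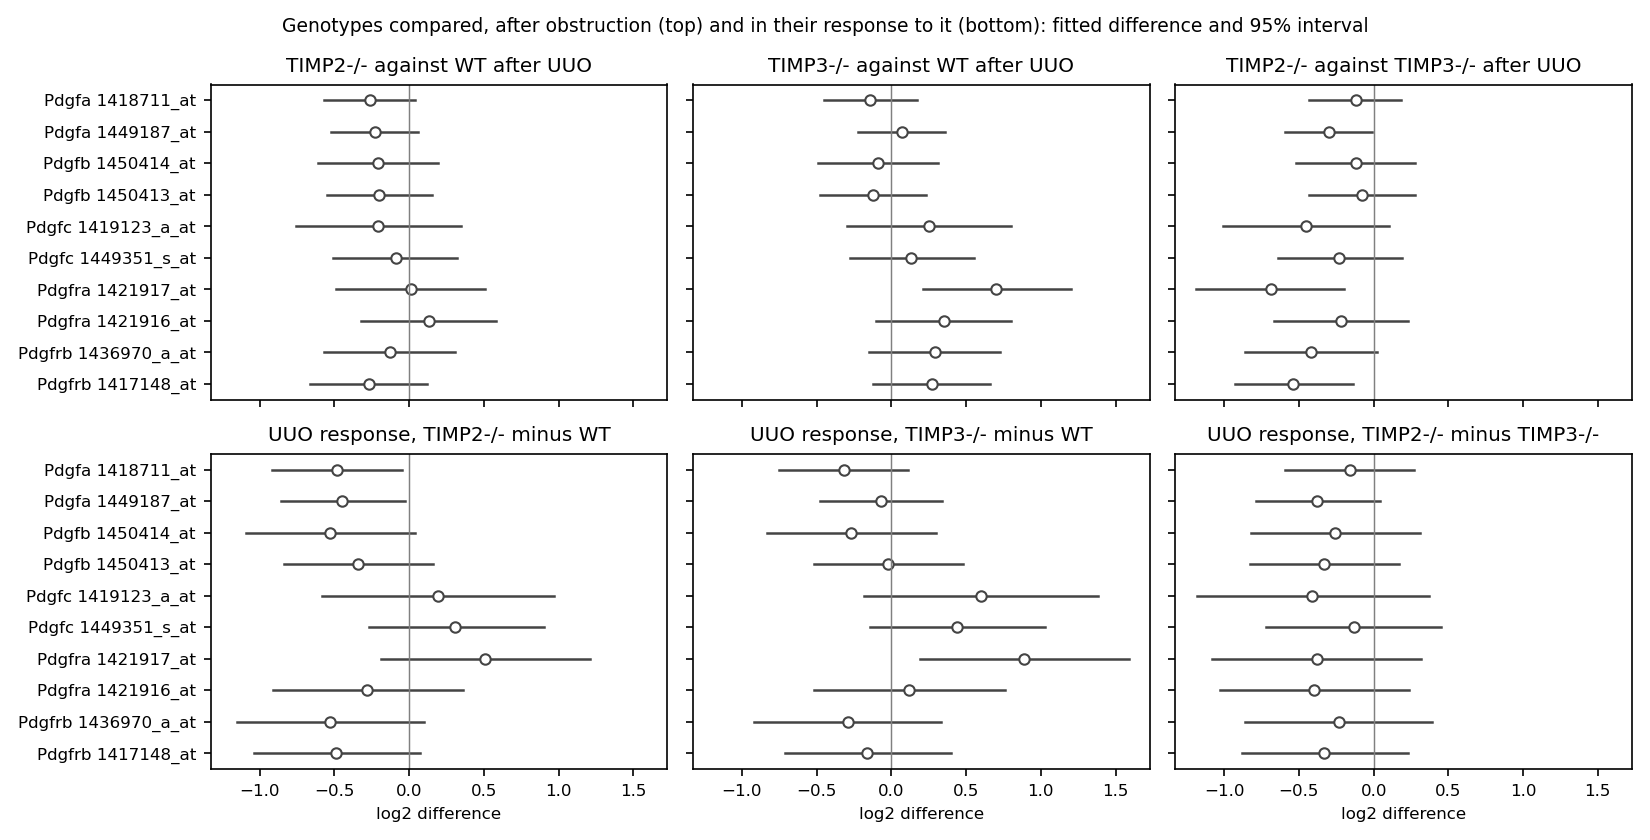
Log2 difference between genotypes after UUO (top) and of the UUO response (bottom) for each PDGF probe set, with the 95% interval as bars. All points are open because none had a limma adjusted p under 0.05. The interval of Pdgfra 1421917_at lies above 0 in TIMP3-/- against WT, both after UUO and in the response. After UUO in TIMP2-/- against TIMP3-/-, the intervals of Pdgfra 1421917_at, Pdgfrb 1417148_at and Pdgfa 1449187_at lie below 0. In the response of TIMP2-/- minus WT, those of both Pdgfa probe sets lie below 0. All other intervals include 0.

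Of the rest of the PDGF pathway, Pdgfd, a ligand of the beta receptor, was measured by a dim probe set that read 13.2 to 28.2 on the sham arrays, below the 25th percentile of every array (56.8 to 64.2), and 26.1 to 127 on the UUO arrays. It passed limma's test in TIMP2-/- (adjusted p = 0.00908, and 0.0514 without TIMP2-/- UUO 1) and TIMP3-/- (adjusted p = 0.0011) and not in WT (adjusted p = 0.109). Its lower UUO values also lay below the 25th percentile of the array. Because its sham values and part of its UUO values were not shown to be above background, no size is drawn from them. Of 10 genes that process or bind the ligands, 4 rose and 2 fell in WT, 5 and 3 in TIMP2-/-, and 5 and 3 in TIMP3-/-, with median log2 differences of 0.46, 0.75 and 0.84. Of all probe sets 30.8%, 35% and 62.5% were called in either direction. Sparc, a matrix protein that binds PDGF-B, rose by 2.75 in WT, 2.23 in TIMP2-/- and 2.69 in TIMP3-/-, and Plat, the tissue plasminogen activator that cuts PDGF-C, by 1.66, 1.46 and 1.93. Lrp1, a coreceptor of the beta receptor, rose by 2.18, 1.35 and 2.08 in the same order. Pcsk6, a convertase, fell by 1.28, 1.73 and 1.52. After UUO, TIMP2-/- against TIMP3-/- had lower Thbs1, the matrix glycoprotein thrombospondin 1 (-1.48 ± 0.42, limma adjusted p = 0.0479), and higher Plau, the urokinase (1.35 ± 0.24, adjusted p = 0.00911).

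Among signal carriers behind the receptors, 22 of 28 listed genes were measured. In WT 5 rose and 1 fell, in TIMP2-/- 6 and 2, and in TIMP3-/- 11 and 2, with medians of 0.18, 0.31 and 0.33. With both directions pooled, the calls were near the shares of all probe sets given above. Rises outnumbered falls in each genotype, whereas 14.7%, 14.1% and 25% of all probe sets were called higher and 16.1%, 20.9% and 37.5% lower. Stat3, a transcription factor activated by many receptors, rose by 1.05 in WT, 1.03 in TIMP2-/- and 1.26 in TIMP3-/-, and Fyn, a Src family kinase, by 0.70, 0.63 and 0.71. Akt1, a kinase downstream of PI3 kinase, rose by 0.85, 0.49 and 0.62. In TIMP3-/- the largest rises were those of Rasa1, a Ras GTPase-activating protein (2.42 ± 0.58), and Nck1, an adaptor (1.80 ± 0.39). Without the 3 arrays that stood apart, 3 rose and none fell in WT, and with arrays shifted to 1 median 7 rose and 5 fell in TIMP3-/-.

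Of 12 measured genes that restrain the receptors' signal, 2 rose in WT, 4 rose and 1 fell in TIMP2-/-, and 7 rose and 1 fell in TIMP3-/-. The WT count was near the 14.7% of all probe sets called higher, a share that was 14.1% in TIMP2-/- and 25% in TIMP3-/-. The shares called lower were 16.1%, 20.9% and 37.5%. Taken in both directions, the TIMP3-/- count was near the 62.5% of all called, but rises made up most of it. Ptpn1, a phosphatase that acts on receptor tyrosine kinases, rose by 0.83 in WT and 0.72 in TIMP3-/-, with 0.28 in TIMP2-/- (limma adjusted p = 0.206). Cbl, the ubiquitin ligase of activated receptors, rose by 0.71 in TIMP2-/- and 1.28 in TIMP3-/-, with 0.22 in WT (adjusted p = 0.479). Spred1, an inhibitor of the Ras pathway, rose by 1.89 in TIMP3-/- and, close to the threshold, by 1.11 in TIMP2-/- (adjusted p = 0.0494). The TIMP2-/- count was 2 rises and 1 fall with arrays shifted to 1 median or with quantile normalization, and the WT count was 1 rise with quantile normalization or without the 3 arrays that stood apart, and 1 rise and 1 fall with arrays shifted to 1 median.

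Immediate early genes that PDGF, among many stimuli, induces in fibroblasts rose in larger number. Of 18, 12 rose in WT, 12 rose and 1 fell in TIMP2-/-, and 13 rose and 2 fell in TIMP3-/-, with medians of 1.38, 1.01 and 1.28. The shares of all probe sets called higher were 14.7%, 14.1% and 25%. The chemokine gene Cxcl1 rose by 4.33, 3.87 and 4.57, the zinc finger factor Egr2 by 3.43, 3.24 and 3.26, Fos by 2.89, 2.83 and 3.07, and Egr1 by 2.67, 2.86 and 2.39, each past the test.

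Marker lists of the cells that carry or release PDGFs differed among themselves in how they moved. Fibroblast and macrophage markers and part of the pericyte markers rose beside the members. This was not particular to them, as all 11 measured markers of injured tubules also rose in each genotype (medians 3.89, 2.71 and 4.13). The lists hold none of the 5 genes. Of 15 interstitial fibroblast markers, 14 rose and 1 fell in WT, 11 rose in TIMP2-/- and 13 rose in TIMP3-/-, with medians of 3.05, 2.31 and 3.62. Col1a1 and Col3a1, the chains of interstitial collagen, rose by 5.17 and 4.31 in WT. The mean log2 level of the list lay between 7.79 and 8.14 on the 9 sham arrays, 10.08 and 11.50 in WT UUO, 9.95 and 10.14 in TIMP2-/- UUO, and 10.21 and 12.01 in TIMP3-/- UUO.

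Of 15 pericyte, mesangial and smooth muscle markers, 7 rose and 1 fell in WT, 4 rose in TIMP2-/- and 11 rose in TIMP3-/-. Acta2, smooth muscle actin, rose by 2.66 in WT, 1.74 in TIMP2-/- and 2.60 in TIMP3-/-. Rgs5, a pericyte gene, rose by 3.08 in TIMP3-/-, with 0.57 in WT and 0.68 in TIMP2-/- (limma adjusted p = 0.475 and 0.363). The level of the list ran from 7.81 to 8.22 after sham, 8.68 to 9.73 in WT UUO, 8.33 to 8.81 in TIMP2-/- UUO and 9.23 to 10.28 in TIMP3-/- UUO. The TIMP3-/- UUO arrays lay above the TIMP2-/- UUO arrays for both lists, for the brighter Pdgfra probe set and for both Pdgfrb probe sets. With the dimmer Pdgfra probe set the groups overlapped. The macrophage list was separated in the same way, whereas the endothelial list overlapped. Of all probe sets, 29.6% did not overlap between these groups, in either direction.

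After UUO, TIMP2-/- against TIMP3-/- had 8 of the 15 pericyte and smooth muscle markers lower and none higher (median -1.02) and 6 of the 15 fibroblast markers lower and none higher (median -1.31). Of all probe sets, 2.4% were called lower and 4.65% higher in that comparison. Actg2, an enteric actin, differed by -3.96 ± 0.86, Myh11, smooth muscle myosin, by -2.47 ± 0.49 and Col1a1 by -1.41 ± 0.38. These calls rest on the spread shared by all 6 groups, since limma on those 6 arrays alone called 26 of all probe sets in place of 1597 and the marker calls were lost. Without the 3 arrays that stood apart, 2 of the fibroblast markers were lower. The proximal tubule markers went the other way, 9 of 13 higher in TIMP2-/- with a median of 1.13.

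The macrophage and monocyte list rose whole in each genotype, 18 of 18, with medians of 3.19, 2.65 and 2.95, and its level ran from 7.99 to 8.76 after sham and from 10.71 to 12.12 after UUO. Endothelial markers moved less than macrophage markers, with medians of 0.45, -0.01 and 0.22. In WT 6 of 14 rose and 1 fell, in TIMP2-/- none rose and 3 fell, and in TIMP3-/- 5 rose and 2 fell. Their levels were 9.16 to 9.72 after sham and 9.42 to 10 after UUO. Without the 3 arrays that stood apart the WT count was 2 and 1, and with arrays shifted to 1 median the TIMP3-/- count was 2 and 2. The shares of all probe sets called higher were 14.7%, 14.1% and 25%, and those called lower 16.1%, 20.9% and 37.5%. Of 7 platelet markers, 1 rose and none fell in WT, 1 rose and 5 fell in TIMP2-/-, and 2 rose and 5 fell in TIMP3-/-. The chemokine gene Pf4 rose in each genotype (3.26, 2.26 and 3.27). All 13 proximal tubule markers fell in each genotype. The part that any of these cell types had in the PDGF differences was not tested.

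**Figure D4:**
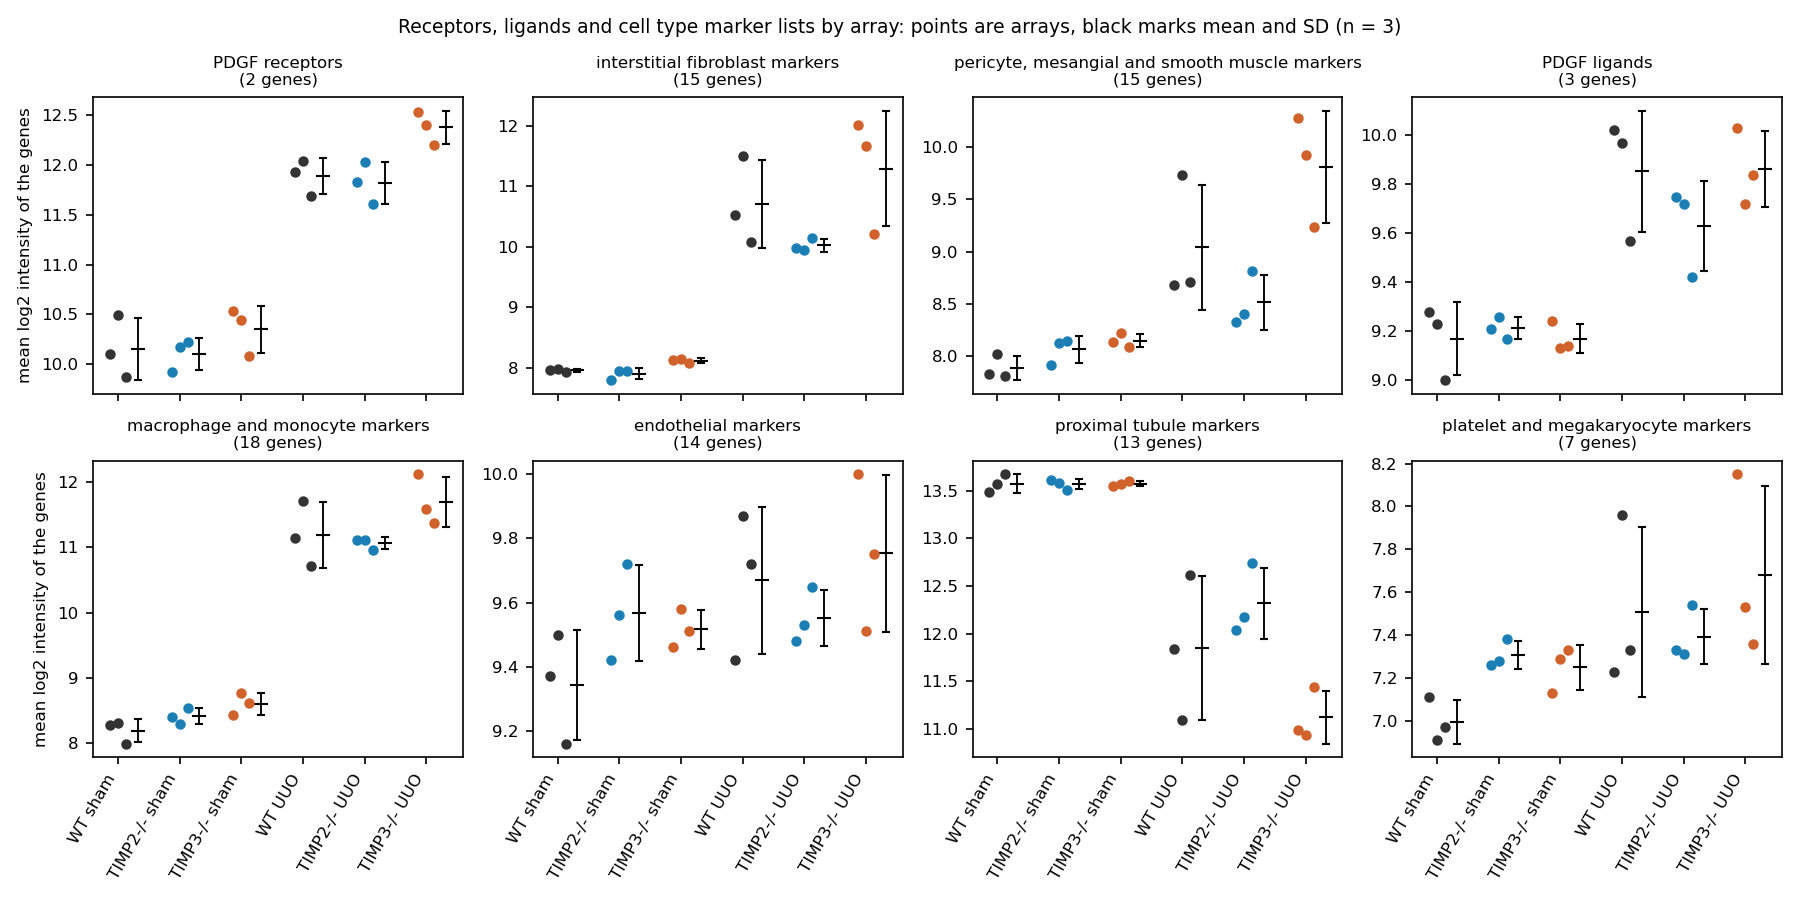
Mean log2 intensity over the genes of a list (vertical axes, a separate range for each panel) by array, for the receptors, the ligands and 6 cell type marker lists; points are arrays and black marks the group mean and SD (n = 3). The receptor, ligand, fibroblast, pericyte and macrophage lists stand higher on every UUO array than on any sham array, and the proximal tubule list lower.

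The genes whose pattern over the 18 arrays was most like that of a member were found for the 3 members that varied most (SD of at least 0.5 on the log2 scale), among 10104 candidate genes. Likeness was the root mean square difference of log2 values after each gene's mean was taken off. Nearest to Pdgfrb were Axl, a receptor tyrosine kinase (0.160), C1ra, a complement protease (0.166), and Serping1, the inhibitor of that protease (0.168). Nearest to Pdgfra were Vopp1 (0.183), Antxr2, a receptor for collagen VI and laminin (0.206), and Akap12, a kinase anchoring protein (0.218). Nearest to Pdgfb were Tagln2, an actin-binding protein (0.113), Tax1bp3 (0.146) and Krt8, a keratin of simple epithelia (0.151). Between members the nearest pair was Pdgfa and Pdgfb (0.23), followed by Pdgfra and Pdgfrb (0.43), and the farthest was Pdgfc and Pdgfrb (0.98). Over the 6 group means in place of the arrays, 1 of the 9 named genes stayed among the nearest 3 (Tagln2).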

How the data were processed

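Total RNA of 18 kidneys was measured on Affymetrix arrays in 6 groups of 3. The deposited values are linear intensity values, 1 per probe set and array. Per the submitters' processing notes RMA was used, with the version and the step to linear values not given in the sources used here. Such normalization can remove a change common to all transcripts. The deposited arrays still differed in median, from 201 to 247, and how far such a change was removed was not tested. The number of arrays limits the precision. The 64 control probe sets were left out. In limma 3.58.1 (R 4.3.3) the log2 intensity values, with no pseudocount, were fitted with 6 group means (12 residual degrees of freedom), 12 comparisons were drawn, and p-values were adjusted within each over 22626 probe sets. The script was tested on simulated data. An exact permutation test of 3 arrays against 3 cannot go below 0.1.

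Members and lists were chosen with earlier results of these data known. From each list, genes were named from the up to 4 called genes of a comparison with the largest differences and no overlap between groups. Same-numbered arrays did not deviate together (median r of 0.13 over 45 pairs, from -0.58 to 0.67), so numbers were not used as pairs. The alternatives were a pseudocount of 32, a filter on dim probe sets, 2 further scalings, 3 other ways to treat a gene's probe sets, 2 other variance models, the compared arrays alone, a replicate block, each array left out, and, added after the data were seen, the 3 arrays that stood apart left out.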

Additional observations from a re-analysis of the deposited data

How the results depend on the processing

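The 4 rises of member genes held in WT and TIMP3-/- under each alternative. The counts ranged from 4 to 4 genes in WT, 3 to 4 in TIMP2-/- and 4 to 5 in TIMP3-/-. Over 120 results of single member probe sets, 2111 of 2164 alternative values kept direction and side of the threshold, 28 lost a call, 25 gained one and 0 reversed. Among uncalled results 65 values turned sign.

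Counts of member genes called between genotypes moved as follows. With the replicate block, which the data did not support as a pairing, TIMP2-/- against TIMP3-/- after UUO gave 1 call (Pdgfra -0.69, limma adjusted p = 0.0399) in place of 0. The block also gained the Pdgfc calls in TIMP3-/- (0.44, limma adjusted p = 0.0391) and, with the second probe set, in WT (-0.42, adjusted p = 0.038), and lost the second Pdgfra probe set in TIMP2-/- (adjusted p = 0.0502). Leaving out 1 array gave 0 to 2 calls in TIMP2-/- against TIMP3-/- after UUO, and 0 to 0 in the other genotype comparisons. Array quality weights, estimated gene by gene because the default estimate did not converge, ran from 0.228 (TIMP3-/- UUO 2) to 5.71 (WT UUO 1). They gave 1 call in TIMP3-/- against WT after UUO (Pdgfra), 3 in TIMP2-/- against TIMP3-/- after UUO (Pdgfc, Pdgfra and Pdgfrb lower), and, for the response, 1 in TIMP2-/- minus WT (Pdgfa), 2 in TIMP3-/- minus WT (Pdgfc and Pdgfra) and 1 in TIMP2-/- minus TIMP3-/- (Pdgfc). The cause was not tested.

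Counts over all probe sets moved most between genotypes. TIMP3-/- against WT after UUO had 160 calls, but 5 on the arrays compared alone, 812 without the 3 arrays that stood apart and 6246 with weights. TIMP2-/- against TIMP3-/- after UUO had 1597, 26, 975 and 5755. Leaving out 1 compared array gave 35 (without WT UUO 3) to 2485 (without TIMP3-/- UUO 3) in the first and 112 (without TIMP2-/- UUO 3) to 5577 (without TIMP3-/- UUO 3) in the second, so the background of these comparisons rests on single arrays. UUO in WT had 6971, with 3852 without those 3 arrays and 4405 without WT UUO 2. UUO in TIMP2-/- had 7922, with 4184 without TIMP2-/- UUO 1, 4033 without UUO 2 and 4859 without sham 3. Of 210 results of named list genes, 2636 of 2879 alternative values kept their call, 243 lost it and 0 turned sign. The dimmest probe sets, Pdgfra 1421916_at and Pdgfb 1450413_at, are the least certain.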
